A study of Mus musculus with 4 samples.

Results

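Interferon-stimulated genes are the genes that cells switch on when they sense interferon, and the 39 described here were taken as a fixed list of gene symbols looked up in the annotation of the mouse gene array. Of these, 34 could be read from a probe set that carries their symbol alone, out of 19938 genes read in that way. Isg15, Ifi47, Igtp and Gbp2 lie only on probe sets that list a second gene, and Ifi44 is not named in the annotation, so no values are given for these 5. The samples were leukemic whole bone marrow from C57BL/6 mice, in which the fusion oncogene MLL-AF9 drives an acute myeloid leukemia. All 4 arrays come from MLL-AF9 marrow: 2 were labelled wild type (MLL-AF9/Hes1+/+) and 2 Hes1 null (MLL-AF9/Hes1-/-), and the labels name no treatment, time point, animal age or means of deleting Hes1. Hes1 encodes a transcriptional repressor induced by Notch signalling, and the series asks what its loss does to this leukemia. Nothing in the labels states that the arrays come from separate mice, so the sample-to-sample spread behind the p-values may be partly or wholly technical. The fit used for them also draws on the spread of the other genes.

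Type I interferons bind the receptor made of Ifnar1 and Ifnar2, and the kinases Jak1 and Tyk2 then activate transcription factors that include Stat2. With Irf9, Stat2 is part of a complex that binds the interferon-stimulated response element (ISRE), a DNA motif built from GAAA repeats near the start of many target genes. Interferon gamma acts through its own receptor on a different motif, the gamma-activated site (GAS). In marrow, interferon signalling is known to push stem cells out of dormancy, and the induced genes are also a standard readout of viral sensing and of inflammatory state.

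The letters of that motif were common in the members' promoters. The RefSeq promoter table (GRCm38.p6), which gives the 250 bases before and 50 bases from each gene's start, holds 30 of the 39 members, and Mx1, Mx2, Oas2, Usp18, Dhx58, Rtp4, Zbp1, Parp9 and Parp14 are not in it. An ISRE-like match was defined as 2 copies of GAAA set apart by any 2 bases, read on both strands, with overlapping matches counted. It was present for 18 of the 30 members (60.0%) and for 1079 of all 27025 genes in the table (3.99%). A GAS-like match, TTC and GAA set apart by any 3 bases, was present for 8 members (26.7%) and for 9.55% of all genes, and the same bases can belong to both motifs. A match describes the letters in this window and is not a measured binding site. The stretches below show the 6 measured members with 2 ISRE-like matches ahead of the start, and then Samd9l, whose array values differed most between the genotypes. Capitals mark the matches, and each line is written 5′ to 3′ on the gene's own strand.
Ifit1, chr19:34640765-34640833, plus strand: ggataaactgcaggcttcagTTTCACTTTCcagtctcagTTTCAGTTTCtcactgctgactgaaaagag
Ifit3, chr19:34583353-34583436, plus strand: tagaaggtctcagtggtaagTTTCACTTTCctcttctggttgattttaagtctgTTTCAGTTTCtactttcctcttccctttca
Oas1a, chr5:120907526-120907565, minus strand: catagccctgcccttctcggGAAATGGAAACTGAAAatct
Bst2, chr8:71537567-71537622, minus strand: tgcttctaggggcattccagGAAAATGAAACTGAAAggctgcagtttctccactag
Irgm1, chr11:48871421-48871470, minus strand: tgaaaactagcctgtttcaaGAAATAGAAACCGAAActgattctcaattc
Gbp3, chr3:142559979-142560034, plus strand: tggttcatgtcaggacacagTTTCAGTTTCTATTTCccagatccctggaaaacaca
Samd9l, chr6:3399522-3399543, minus strand: atcgaaactgGAAACTGAAgca

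The Samd9l window holds no ISRE-like match by this definition. Its capitals mark a shorter form that lacks the last base of the second repeat, which begins at base 39 of the transcript. That shorter form was present for 21 of the 30 members (70.0%) and for 9.76% of all genes.

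The label checks were limited. Mpo, the peroxidase gene of myeloid precursors, lay at 12.83 and 12.69 in wild type and at 11.74 and 10.13 in Hes1-null marrow (-1.83 ± 0.50, unadjusted p = 0.0126 by limma). Hes1 itself lay at 5.59 and 5.79 in wild type and at 5.43 and 5.84 in Hes1-null marrow. The Hes1 probe set thus does not separate the genotypes, no source used here states whether its probes fall inside the deletion, and genotypes are used as labelled. Xist lay at 11.73 or above on 3 arrays and at 7.25 on Hes1-null replicate 2. The Y-linked genes Kdm5d, Uty, Eif2s3y and Usp9y were at or below 4.09 on all 4 arrays. On Hes1-null replicate 2 they lay at 4.07, 3.32, 2.95 and 2.98. The cause of the low Xist reading was not tested. Over all genes, which are not independent, r was 0.995 between the wild-type pair and 0.982 between the Hes1-null pair. With 2 arrays per genotype an exact permutation test of a single value cannot go below p = 0.33, two-sided. Hes1-null replicate 2 thus stands apart in Xist and is the lowest array in Mpo, and values without each array are given where they alter a result.

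The interferon-stimulated genes as a list had a median difference between Hes1-null and wild-type leukemic marrow close to that of all genes, and the few members that lay apart were lower in Hes1-null marrow. Values are log2 array intensities. Differences were taken as the Hes1-null mean minus that of wild type, and each is given ± its standard error (SE), with n = 2 arrays in each genotype. The median difference of the 34 members was -0.06, against -0.02 over all genes, and the middle of the members' distribution ran from -0.20 to 0.08. Of the members, 20 had a negative and 14 a positive difference. By limma with adjustment over all genes, 0 members had an adjusted p under 0.05, where 29 of all genes (0.145%) did, 15 lower (0.0752%) and 14 higher (0.0702%). At an unadjusted p under 0.05, 4 members were counted (11.8%), against 8.29% of all genes. These were Samd9l, Cmpk2, Mx1 and Usp18, each lower in Hes1-null marrow, where 4.78% of all genes were lower and 3.51% higher at that threshold. Of these 4, Samd9l, Mx1 and Usp18 had a mean level under the median over all genes. The 4 arrays separated by genotype, with no overlap, for 12 members (35.3%), against 38.0% of all genes. Of these 12, 10 were lower in Hes1-null marrow and 2 were higher. Among all 19938 genes, 7578 were without overlap, of which 4106 were lower and 3472 higher. Those 2 counts are 20.6% and 17.4% of the 19938 genes. Each share of members rests on few genes, and the members were counted, not tested, as a list.

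For most members the arrays also bounded the size of a difference. The 95% interval of the difference lay within 2-fold in either direction for 30 of the 34 members, as it did for 87.8% of all genes. The intervals of Samd9l, Cmpk2, Ifitm1 and Ifitm3 reached beyond 2-fold, and only for Samd9l did the estimate itself exceed it. An interval that includes 0 does not show that a gene had the same level in both genotypes, and the intervals are per gene, with no adjustment for the number of genes.

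**Figure D1:**
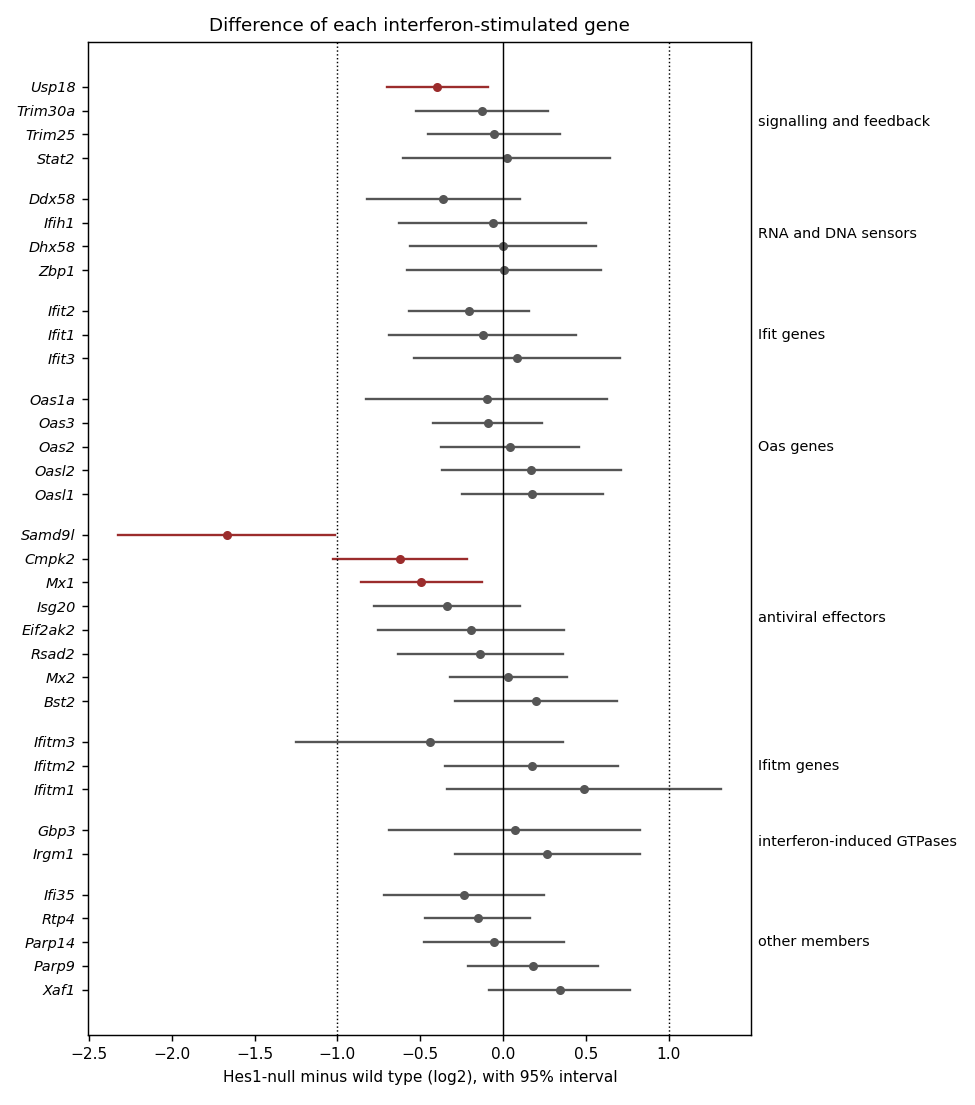
Hes1-null minus wild type (log2, horizontal axis) for the 34 measured interferon-stimulated genes, grouped by role, with the 95% interval of each difference from limma as a line. Genes with an unadjusted p under 0.05 are red, and the dotted lines mark a 2-fold change. Samd9l lies apart at -1.67, and the other 33 points lie between -0.62 and 0.49.

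Samd9l encodes a large cytoplasmic protein that restrains poxviruses and whose human counterpart is mutated in inherited marrow failure and myeloid malignancy. It lay at 6.81 and 7.43 in wild type, and in Hes1-null marrow at 5.66 and 5.25. Both Hes1-null arrays were therefore below both wild-type arrays, by more than either genotype's own arrays differed. The difference was -1.67 ± 0.26, a 3.18-fold lower mean (95% interval -2.32 to -1.01). The unadjusted p was 0.00103 and the adjusted p was 0.142 by limma, so it did not pass over all genes. With 1 array left out its difference ran from -1.97 to -1.36 and its adjusted p from 0.0555 to 0.342.

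Cmpk2, a mitochondrial nucleotide kinase gene that sits beside Rsad2 in the genome, lay at 8.23 and 8.14 in wild type and at 7.60 and 7.52 in Hes1-null marrow. Its arrays were close within each genotype and apart between them, with a difference of -0.62 ± 0.16 (adjusted p = 0.361). Rsad2 encodes viperin, which makes a chain-terminating nucleotide from the product of Cmpk2. It lay at 5.42 and 5.54 in wild type and at 5.09 and 5.59 in Hes1-null marrow, so that the genotypes overlapped (-0.14 ± 0.20). The neighbouring pair thus gave different readings, although the difference between them was not tested.

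Mx1 and Mx2 belong to the dynamin-like antiviral GTPases. RefSeq lists both as transcribed pseudogenes in this strain, and laboratory strains such as C57BL/6 are known to lack working Mx proteins, so here they can only report on transcription. Mx1 lay at 5.92 and 5.80 in wild type and at 5.48 and 5.25 in Hes1-null marrow, without overlap (-0.49 ± 0.14, adjusted p = 0.446). Mx2 did not exceed 3.51 on any array. That is under 4.09, the level reached by the brightest Y-linked probe set, so Mx2 is not shown to lie above background and its difference (0.03 ± 0.14) carries little.

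Isg20, an exonuclease gene that degrades RNA, lay at 7.52 and 7.80 in wild type and at 7.31 and 7.34 in Hes1-null marrow (-0.34 ± 0.17, unadjusted p = 0.106 by limma). Its genotypes did not overlap, but the gap between the nearest arrays was smaller than the gap between the wild-type arrays. Eif2ak2, encoding the kinase PKR that halts translation on sensing double-stranded RNA, lay at 7.44 and 7.31 in wild type and at 7.45 and 6.92 in Hes1-null marrow (-0.19 ± 0.22). Bst2, encoding tetherin, which holds budding virus at the cell surface, lay at 7.34 and 7.39 in wild type and at 7.76 and 7.37 in Hes1-null marrow (0.20 ± 0.19). For Eif2ak2 and Bst2, 1 Hes1-null array lay beside wild type and the other did not, replicate 2 for the former and replicate 1 for the latter.

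Among the 4 members grouped as signalling and feedback genes, 3 had a negative difference, and 1 of them had an unadjusted p under 0.05 by limma. Usp18 encodes the protease that removes the ubiquitin-like protein Isg15 from its targets and blocks the type I receptor. It lay at 5.34 and 5.27 in wild type and at 4.92 and 4.90 in Hes1-null marrow, with close pairs that did not overlap (-0.40 ± 0.12, adjusted p = 0.459). Stat2, the transcription factor of the ISRE-binding complex, lay at 8.47 and 8.23 in wild type and at 8.08 and 8.67 in Hes1-null marrow. The Hes1-null arrays lay on either side of wild type, with a difference of 0.02 ± 0.25 (95% interval -0.60 to 0.65). Trim25, the ubiquitin ligase that helps activate RIG-I, differed by -0.05 ± 0.16. Trim30a, a ligase gene that dampens Toll-like receptor signalling, lay at 9.19 and 9.21 in wild type and at 9.15 and 8.997 in Hes1-null marrow (-0.13 ± 0.16), where both Hes1-null arrays were the lower ones.

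The cytoplasmic sensors of viral nucleic acid did not separate the genotypes as a family. Ddx58, encoding RIG-I, had the largest difference of the family at -0.36 ± 0.18 (adjusted p = 0.698), with both Hes1-null arrays below both wild-type arrays. Ifih1, encoding the long double-stranded RNA sensor MDA5, differed by -0.06 ± 0.23. Dhx58, encoding their regulator LGP2, and Zbp1, a sensor of left-handed nucleic acid that can trigger cell death, differed by -0.0005 ± 0.22 and 0.006 ± 0.23. These last 3 genes each had Hes1-null arrays on either side of both wild-type arrays.

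Ifit and Oas genes, the members usually read first for an interferon response, gave small differences. Ifit1, Ifit2 and Ifit3 encode proteins that bind foreign RNA ends and block their translation. Ifit2 was lower on both Hes1-null arrays, at 6.00 and 5.87 against 6.24 and 6.05 (-0.21 ± 0.14, adjusted p = 0.788). Ifit1 (-0.12 ± 0.23) and Ifit3 (0.09 ± 0.25) each had 2 arrays at or below 4.09, so they are not shown to exceed background on all arrays. Ifit3 also has a near-identical neighbour, Ifit3b, and the array may not tell them apart.

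The Oas enzymes make the short oligoadenylates that activate RNase L, while the Oas-like protein of Oasl1 restrains Irf7 translation. Across the 5 measured genes the differences ran from -0.10 for Oas1a to 0.18 for Oasl1, with a family median of 0.04. Oas1a lay at 6.50 and 6.65 in wild type and at 6.89 and 6.06 in Hes1-null marrow, above wild type on 1 array and below it on the other. Oas3 was lower on both Hes1-null arrays, by only -0.09 ± 0.13. Oas2 (0.04 ± 0.17) and Oasl2 (0.17 ± 0.21) overlapped between the genotypes. Oas1a belongs to a cluster of similar genes, which the array may not fully separate.

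Ifitm proteins sit in membranes and hinder virus entry, and Ifitm1 and Ifitm3 are also high in some stem and progenitor cells. This family showed the widest split between the 2 Hes1-null arrays. Ifitm1 lay at 6.83 and 6.68 in wild type and at 6.76 and 7.73 in Hes1-null marrow, so that only replicate 2 stood above wild type (0.49 ± 0.33, adjusted p = 0.785). A second probe set of Ifitm1 had the same order, at 5.62 and 5.19 in wild type and at 5.60 and 6.94 in Hes1-null marrow. Ifitm2 lay at 11.90 and 11.87 in wild type and at 11.75 and 12.37 in Hes1-null marrow (0.17 ± 0.21). On each of its 3 probe sets Hes1-null replicate 2 was the highest array. Ifitm3 lay at 10.39 and 10.57 in wild type and at 9.57 and 10.51 in Hes1-null marrow, so that replicate 1 stood below wild type and replicate 2 beside it (-0.44 ± 0.32, adjusted p = 0.797). Without Hes1-null replicate 1, Ifitm1 had an adjusted p of 0.0467 by limma with the lone array above wild type. That fit takes its spread from the wild-type pair and the prior, and assumes that the lone Hes1-null array varies likewise. In it 999 genes were called in place of 29, and 29.0% of all genes had an unadjusted p under 0.05.

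Gbp3 and Irgm1 encode GTPases that interferon gamma strongly induces and that take part in defence against intracellular pathogens. Gbp3 lay at 7.79 and 7.64 in wild type and at 8.20 and 7.37 in Hes1-null marrow (0.07 ± 0.30). Irgm1 lay at 7.10 and 6.95 in wild type and at 7.55 and 7.03 in Hes1-null marrow (0.27 ± 0.22, adjusted p = 0.834). In both genes Hes1-null replicate 1 was the highest array, where for each Ifitm gene replicate 2 lay above replicate 1.

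Among the remaining members, Xaf1 and Parp9 were the 2 that were higher on both Hes1-null arrays. Xaf1, encoding an antagonist of the apoptosis inhibitor XIAP, lay at 6.26 and 5.91 in wild type and at 6.46 and 6.39 in Hes1-null marrow (0.34 ± 0.17, adjusted p = 0.687). Parp9, an ADP-ribosyltransferase family gene, differed by 0.18 ± 0.16, and its relative Parp14 by -0.06 ± 0.17. Ifi35 (-0.24 ± 0.19) overlapped between the genotypes. Rtp4 (-0.15 ± 0.13) was lower on both Hes1-null arrays, and neither difference reached an unadjusted p of 0.05.

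**Figure D2:**
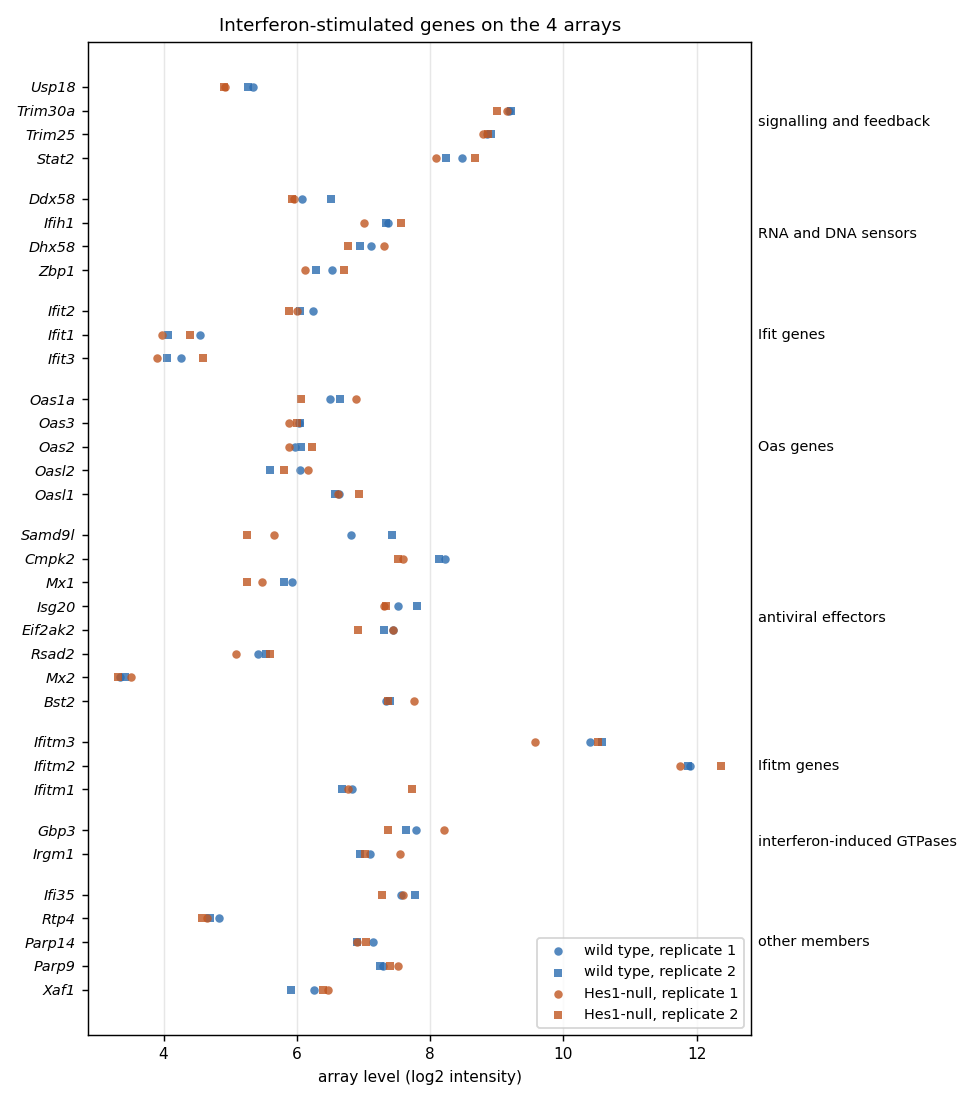
Log2 intensity (horizontal axis) of each measured member on the 4 arrays, with wild type in blue, Hes1-null in orange, replicate 1 as circles and replicate 2 as squares. The colours separate widely for Samd9l, and for the Ifitm genes 1 Hes1-null array stands away from the other 3. Levels of different genes come from different probes and are not comparable with each other.

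Read array by array, the members differed more between the 2 Hes1-null samples than between the 2 wild-type samples. The gap between Hes1-null arrays exceeded 0.5 on the log2 scale for 13 of 34 members (38.2%), where 19.6% of all genes did so. Between the wild-type arrays it did so for 1 member, Samd9l (2.94%), against 3.06% of all genes. Of the 13, 8 were higher on Hes1-null replicate 2: Ifitm1, Ifitm3, Ifit3, Ifitm2, Stat2, Zbp1, Ifih1 and Rsad2. The other 5 were higher on replicate 1: Gbp3, Oas1a, Dhx58, Eif2ak2 and Irgm1. Of all genes with such a gap, 1629 were higher on replicate 2 and 2276 on replicate 1. The Hes1-null gap was larger than the wild-type gap for 67.6% of members and 72.1% of all genes. Gaps in both directions were thus not particular to this list. The members, like all genes, did not move together from 1 Hes1-null sample to the other. Set against the wild-type mean, their median was -0.13 on Hes1-null replicate 1 and -0.01 on replicate 2, readings that share their wild-type arrays. With 1 sample behind each reading, these gaps have no test.

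**Figure D3:**
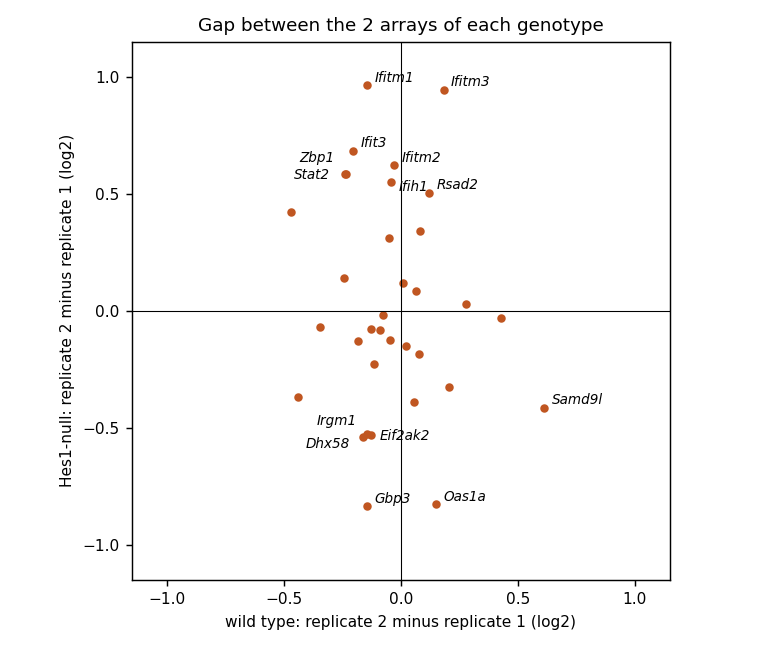
Replicate 2 minus replicate 1 (log2) for each measured member within wild type (horizontal axis) and within Hes1-null (vertical axis), on equal scales. Genes with a gap above 0.5 in either genotype are named. The points spread further vertically, up to 0.96 for Ifitm1 and down to -0.84 for Gbp3.

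Split by the motif, the members gave similar medians, which are a description with no test. The 15 measured members with an ISRE-like match had a median difference of -0.09, ranging from -0.44 to 0.27, and 0 of them had an unadjusted p under 0.05. The 10 with a promoter in the table and no match had a median of -0.13, and Samd9l and Cmpk2 were among them. The 9 without an entry had a median of -0.0005 and included Mx1 and Usp18.

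The rest of the interferon pathway was read from 7 further lists, with 104 of 124 listed genes measured. Of these, 0 passed the adjusted threshold by limma, and 18 (17.3%) had an unadjusted p under 0.05, 10 higher and 8 lower, against 8.29% of all genes, 3.51% higher and 4.78% lower. Among the interferon genes themselves (15 measured, median -0.12), 1 was counted at the unadjusted threshold, Ifna13 (-0.54 ± 0.15), which lay at or below 4.09 on 3 of the 4 arrays. Ifnb1 lay between 4.42 and 4.93 and Ifng between 5.38 and 5.84 on the 4 arrays, with differences of -0.28 ± 0.15 and 0.15 ± 0.19. Ifna5 differed by -0.28 ± 0.17, and Ifnk was at or below 4.09 on all 4 arrays. The Ifna genes are near-identical to each other in sequence, so their probe sets are uncertain.

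All 6 receptor genes were measured, with a median of -0.09. Ifngr1, the ligand-binding chain for interferon gamma, lay at 11.68 and 11.70 in wild type and at 12.00 and 11.92 in Hes1-null marrow (0.27 ± 0.09, adjusted p = 0.541). Its partner Ifngr2 differed by -0.12 ± 0.13, and the type I receptor chains Ifnar1 and Ifnar2 by 0.16 ± 0.17 and -0.13 ± 0.15. Of 11 measured kinases, STATs and interferon regulatory factors (median -0.07), Irf8 and Irf1 were counted, in opposite directions. Irf8, a factor that directs monocyte and dendritic cell fate, lay at 12.01 and 11.95 in wild type and at 11.26 and 11.03 in Hes1-null marrow (-0.84 ± 0.12, adjusted p = 0.123). Irf1, an early target of interferon gamma, lay at 7.67 and 7.62 in wild type and at 8.08 and 8.68 in Hes1-null marrow (0.74 ± 0.24, adjusted p = 0.505). Irf1, like Socs3 below, has 2 probe sets, and only the one of higher mean is given. Irf7 and Irf9, which amplify and carry the type I signal, differed by 0.16 ± 0.17 and -0.07 ± 0.17. Stat3 (0.51 ± 0.30) and Irf2 (-0.35 ± 0.30) overlapped between the genotypes.

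Of the 6 inhibitors, 0 had an unadjusted p under 0.05 by limma, and 0 an adjusted one. Socs1, Ptpn6, Socs3 and Pias4 differed by 0.40 ± 0.23, -0.37 ± 0.23, 0.51 ± 0.50 and 0.15 ± 0.18. Of 14 measured nucleic acid sensors and adaptors (median 0.06), 2 were higher and 1 lower at the unadjusted threshold. Sting1, the adaptor of cytoplasmic DNA sensing, lay at 10.26 and 9.63 in wild type and at 11.17 and 10.82 in Hes1-null marrow (1.05 ± 0.25, adjusted p = 0.309). Mavs, the adaptor of RIG-I and MDA5, differed by 0.50 ± 0.19 and Tlr4, the endotoxin receptor, by -0.45 ± 0.17. Aim2, a DNA sensor of the inflammasome, differed by 0.37 ± 0.18.

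Interferon-induced genes outside the member list differed in both directions (44 measured, median -0.07), with 4 higher and 5 lower at the unadjusted threshold, 20.5% in all against 8.29% of all genes. Lgals3bp, a secreted galectin ligand gene, lay at 7.52 and 7.51 in wild type and at 8.89 and 8.88 in Hes1-null marrow (1.38 ± 0.16, adjusted p = 0.0821). Gbp7, a relative of Gbp3, lay at 6.54 and 6.48 in wild type and at 7.68 and 7.39 in Hes1-null marrow (1.03 ± 0.17, adjusted p = 0.162). In the other direction, the Schlafen gene Slfn1 differed by -1.06 ± 0.26 (adjusted p = 0.319) and Samhd1, which depletes nucleotides for DNA synthesis, by -0.65 ± 0.14 (adjusted p = 0.249). All 8 measured genes of MHC class I presentation, which interferon also induces, had a positive difference (median 0.22), and 2 had an unadjusted p under 0.05. Tap1, a subunit of the peptide transporter, differed by 0.84 ± 0.17 (adjusted p = 0.243) and B2m, the light chain, by 0.33 ± 0.11. Psmb8 and Psmb10 of the immunoproteasome differed by 0.29 ± 0.16 and 0.24 ± 0.19.

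**Figure D4:**
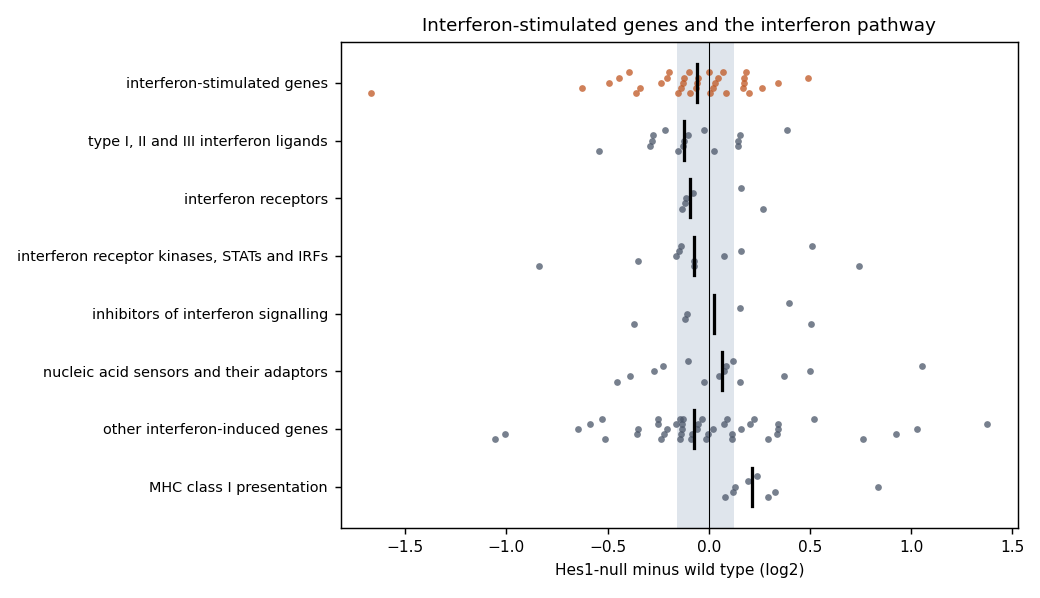
Hes1-null minus wild type (log2, horizontal axis) for each measured gene of the interferon-stimulated list (orange) and of 7 interferon pathway lists (grey), 1 point per gene, with list medians as black bars. The shaded band holds the middle 50% of all genes, from -0.16 to 0.12. Every list median lies between -0.12 and 0.22.

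Whole marrow mixes leukemic cells with other cell types, and in such bulk samples fewer cells of a type and less RNA per cell cannot be told apart. Monocyte and macrophage markers lay lower with the 4 members named above: 10 of 13 had a negative difference, and their summed linear intensity was 9850 to 10300 in wild type and 6240 to 6680 in Hes1-null marrow. Of these, Vcam1 (-2.62 ± 0.17, adjusted p = 0.0242) passed the adjusted threshold, while Ccr2 and Cx3cr1 differed by -1.91 ± 0.20 and -2.43 ± 0.30. Neutrophil markers (10 of 12 negative) summed to 30600 to 37300 and 15400 to 15800. Those of smallest p by limma were Ltf (-2.77 ± 0.23, adjusted p = 0.0398), Elane (-1.61 ± 0.18) and Prtn3 (-0.80 ± 0.10). Some other neutrophil markers had larger negative differences than Prtn3. Mmp8 and Cxcr2, the 2 with a positive difference, differed by 0.95 ± 0.40 and 0.07 ± 0.20. The wild-type sums of this list came largely from Elane, Mpo, Ngp and Prtn3, each at 12.16 or above there. Mpo was named above as a gene of myeloid precursors, so these sums do not measure neutrophils alone. T and NK cell markers (10 of 11 negative, median -0.39) summed to 1250 to 1270 and 454 to 607. The wild-type sums came mostly from Cd28 (-2.37 ± 0.40) and Nkg7 (-2.08 ± 0.61), so they say little of the other markers. Between the wild-type arrays, replicate 2 minus replicate 1 was -1.21 for Cd28 and 1.13 for Nkg7. Klrb1c was at or below 4.09 on all 4 arrays. Plasmacytoid dendritic cells, potent interferon producers that carry Bst2, had 7 of 9 markers with a positive difference and sums of 1410 to 1470 and 2790 to 2810. That gap came from Tcf4 (1.82 ± 0.18): the other 8 markers summed to 831 to 922 in wild type and 799 to 864 in Hes1-null marrow, a split made after the values were seen. Siglech (0.36 ± 0.19) lay at 5.34 to 5.99 on the 4 arrays, while Lair1 and Pacsin1 differed by -0.84 ± 0.19 and 0.50 ± 0.14. Markers of B cells, erythroid cells, platelets and stroma had negative differences for 3 of 7, 6 of 7, 6 of 6 and 7 of 8 genes. No deposited value is 0, and the part of these cell types in the members' values was not tested.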

How the data were processed

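The authors deposited probe set intensities from 4 Affymetrix mouse gene arrays (MoGene-1_0-st-v1), 1 per sample, and the submitters' processing notes name Affymetrix Expression Console and RMA. For versions, nothing is given in the sources used here. The values are linear, with array medians of 65.0 to 67.3, so log2 was taken with no value added. Of 35556 probe sets, 21789 carry 1 symbol, 1621 several and 12146 are not in the annotation used. For the 999 genes with several single-symbol probe sets the one of highest mean was kept, leaving 19938 genes and no filter on level, so all 34 members entered. Of the tables' sample columns, 0 were left out.

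Genotype was the only term in limma 3.58.1 (R 4.3.3; two-sided, lmFit then eBayes, trend on intensity), with Benjamini-Hochberg adjustment over all genes. The median SE was 0.17, from 2 residual degrees of freedom with 3.41 added by the prior. Intervals use the moderated SE. The number of arrays limits precision. Members and lists were chosen with earlier results of these data known, and no list was tested as a set. Values on all arrays are given for members with an unadjusted p under 0.05 or a difference of at least 0.8, for the 3 brightest, Stat2 and Usp18, and, chosen after their values were seen, for other members that show a family's pattern. Pathway genes named are the 4 of smallest p per list and Irf7, Irf9, Ifnb1, Ifng, Ifnar1 and Ifnar2. Up to 3 markers per cell type are named, with Siglech, Bst2 and Mpo added, and Ngp, Mmp8 and Cxcr2 added after their values were seen. The fit was run on simulated data drawn from its own variance model, with the same spread in both genotypes. That run cannot show how the fit handles the wider spread of the Hes1-null arrays. Alternatives were the replicate number as a block, 2 normalizations, 2 filters, 3 forms of moderation or weighting, averaged probe sets, an offset of 16 and each array left out.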

Additional observations from a re-analysis of the deposited data

How the results depend on the processing

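No member passed the adjusted threshold under any of the 10 alternatives that keep all arrays, and the count stayed between 0 and 1 when 1 array was left out, the 1 being Ifitm1 without Hes1-null replicate 1. Samd9l, Cmpk2, Mx1 and Usp18 kept a negative difference in every setting that measured them. The count of members at an unadjusted p under 0.05 was 4 except with the filter at the median level, where 20 members remained and Cmpk2 alone was counted (1), and it ran from 1 to 12 with 1 array left out. Without either wild-type array the 1 was Samd9l. Without Hes1-null replicate 1 it was 12, when 29.0% of all genes were counted, and without Hes1-null replicate 2 it was 10, when 16.8% were. At the median filter 5% of members had an unadjusted p under 0.05 by limma, against 10.6% of all genes. Members without overlap numbered 4 there (20%, against 43.5% of all genes). With 1 array left out they numbered 15 to 31, where fewer arrays make separation easier. Their shares then ran from 44.1% to 91.2%, against 57% to 82.1% of all genes. The members' median was -0.027 at the median filter and ran from -0.13 to -0.012 with 1 array left out. Genes called overall numbered 46 after a second quantile normalization, 17 when genes under the 25th percentile of level were dropped, 5 at the median filter, 45 with array weights, and 6 to 999 with 1 array left out. Pathway genes at the unadjusted threshold ran from 10 to 40 with 1 array left out. The shorter ISRE form was present for 70.0% of members' promoters against 60.0%, and for 9.76% of all genes against 3.99%. Each longer match contains the shorter form, so these shares could only stay or rise.

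With the replicate number as a block, 89 genes were called, 0 of them members, and the same 4 members were counted at the unadjusted threshold. The numbers share only a label: same-numbered arrays' deviations correlated at 0.05 over genes. The block changed no member's call.

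Several members had no settled direction. Mx2 was at -0.026 after a second quantile normalization, and Dhx58 at 0.0054 with arrays centred and 0.0018 with the offset. With 1 array left out, 16 of 34 members took both signs: Ifit1 from -0.36 to 0.11, Ifit3 from -0.26 to 0.43, Mx2 from -0.061 to 0.12, Oas1a from -0.51 to 0.31, Oas2 from -0.13 to 0.21, Oasl2 from -0.050 to 0.39, Rsad2 from -0.39 to 0.11, Stat2 from -0.27 to 0.31, Dhx58 from -0.27 to 0.27, Ifih1 from -0.34 to 0.21, Eif2ak2 from -0.46 to 0.070, Zbp1 from -0.29 to 0.30, Parp14 from -0.18 to 0.065, Gbp3 from -0.35 to 0.49, Ifitm2 from -0.14 to 0.48 and Ifitm3 from -0.92 to 0.028. So did the pathway genes Socs3 (-0.27 to 1.28), Irf2 (-0.79 to 0.093), Ifnar2 (-0.28 to 0.020), Irf7 (-0.011 to 0.33), Irf9 (-0.19 to 0.046) and Ifng (-0.074 to 0.38). Without Hes1-null replicate 1, where the lone Hes1-null array is assumed to vary like the wild-type pair, 8 of the 31 pathway genes named passed the adjusted threshold: Socs3, Irf8, Irf1, Irf2, Lgals3bp, Gbp7, Samhd1 and Slfn1. The causes of these shifts were not tested.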
